A study of Homo sapiens with 12 samples.

Results

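Oxidative phosphorylation is carried out by 5 protein complexes of the inner mitochondrial membrane, and the genes examined here are the nuclear genes for their subunits. They were taken by symbol, as all single-gene probes named NDUFA, NDUFB, NDUFC, NDUFS, NDUFV, UQCR, COX4 to COX8, ATP5, CYC1 or SDH, with assembly factors, pseudogenes and non-coding genes left out. This gave 83 protein-coding genes of the 20783 genes measured in all, of which 36 belong to complex I, 3 to complex II, 9 to complex III, 17 to complex IV and 18 to complex V. AFFX (Affymetrix) carried 78 of them on 152 probe sets and ABI (Applied Biosystems) 78 on 91 probes, and 73 genes were on both. Among the last, ATP5IF1 encodes an inhibitor of the enzyme and not a subunit.

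Complexes I and II pass electrons from NADH and succinate to ubiquinone, complex III passes them on to cytochrome c, and complex IV hands them to oxygen. Complexes I, III and IV pump protons as they do so, and complex V, the ATP synthase, lets the protons flow back to make ATP. Most subunits are encoded in the nucleus and a few in mitochondrial DNA, so that the complexes are built from 2 genomes. Many nuclear subunit genes are known targets of the transcription factors NRF1 and GABP.

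The RNA came from A2780, an established human ovarian carcinoma cell line, either untreated (control) or exposed to 3 µM of a cell cycle inhibitor for 6 hours (treated). The compound is not named in the labels. The biological replicates of each condition were pooled and the pool was split into aliquots, so that each group held 3 arrays of 1 RNA pool on each platform, and the same pools served AFFX and ABI. Every p-value given here therefore measures technical spread and compares 2 pools, both platforms included. Only attached cells were collected, and in bulk RNA a change of the RNA in each cell cannot be told apart from a change in the cells that stayed attached.

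AFFX values were the authors' log2 signals. ABI values were the authors' signals, whose scale is not stated and was taken as linear, so that every ABI change rests on turning them to log2 here. The median gene lay between 5.83 and 5.89 on the 6 AFFX arrays and between 0.55 and 0.86 on the 6 ABI arrays. Of the epithelial and ovarian markers, 1 of 7 on AFFX and 0 of 6 on ABI lay in the upper 25% of gene signals, so that the markers of the labelled tissue were mostly dim. Of the leukocyte markers, 0 of 9 lay there on either platform, and 5 of 9 passed the test upward on AFFX and 0 of 9 on ABI, where 33.1% and 8.41% of all genes did. The log2 of their summed signal was 8.30 to 8.33 on the control and 8.58 to 8.65 on the treated AFFX arrays, with the defining marker PTPRC at the 9.0th percentile of gene signals, and was 1.73 to 2.38 and 1.77 to 2.47 on ABI. On the same scale the fibroblast and endothelial markers lay at 9.10 to 9.13 and 8.93 to 9.04 on AFFX, and at 7.97 to 8.16 and 8.22 to 8.32 on ABI. Of these 9, 0 on AFFX and 2 on ABI lay in the upper 25%, COL3A1 and COL1A2 (98th and 92.7th percentile). Those 2, named after their values were seen, fell on AFFX (-1.79 and -1.74) and did not pass on ABI (0.21 and 0.26). COL1A1 passed upward on both (0.49 and 1.13). In all 3 passed upward and 2 downward on AFFX, and 1 and 0 on ABI, where 21.8% and 15.8% of all genes were lower. The part of these markers in the results was not tested.

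The promoters of the subunit genes are described first. RefSeq (GRCh38.p14) gave a promoter of 250 bases before and 50 after the start for 68 of the 83 genes. On either strand, the NRF1 core GCGCATGC stood in 17.6% of them (12 genes), against 3.27% of all 27305 promoters of that length and 4.26% of the 15843 of protein-coding genes. The motif CCGGAAG, bound by ETS factors including GABP, stood in 27.9% (19 genes), against 10.7% and 14.2%. The YY1 motif AAGATGG stood in 22.1% (15 genes), against 6.06% and 6.40%, while TATAAA, the TATA box, stood in 10.3% (7 genes), against 12% and 9.63%. At least 1 of the first 3 motifs was found in 36 of the 68 promoters. These are matches of letters and not measured binding sites.

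The 150 bases before the start are shown for 5 genes that carry a motif and that are described further on, 5′ to 3′, with the motif letters in capitals. They lie at chr19:19516075-19516224 on the + strand for NDUFA13 (CCGGAAG), chr2:97645912-97646061 on the + strand for COX5B (NRF1 core, reverse complement, and CCGGAAG), chr19:35648173-35648322 on the + strand for COX6B1 (CCGGAAG, reverse complement), chr5:86617791-86617940 on the + strand for COX7C (AAGATGG, reverse complement) and chr10:7788027-7788176 on the + strand for ATP5F1C (NRF1 core on both strands, overlapping).
NDUFA13: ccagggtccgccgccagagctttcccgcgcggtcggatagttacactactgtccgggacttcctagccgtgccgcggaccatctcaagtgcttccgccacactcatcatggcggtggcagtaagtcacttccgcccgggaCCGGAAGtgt
COX5B: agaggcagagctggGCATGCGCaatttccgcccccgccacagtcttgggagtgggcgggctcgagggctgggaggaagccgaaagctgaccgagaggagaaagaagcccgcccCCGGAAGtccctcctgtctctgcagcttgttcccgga
COX6B1: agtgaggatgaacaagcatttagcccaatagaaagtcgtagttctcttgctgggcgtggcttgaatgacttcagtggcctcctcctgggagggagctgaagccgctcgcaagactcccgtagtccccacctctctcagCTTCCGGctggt
COX7C: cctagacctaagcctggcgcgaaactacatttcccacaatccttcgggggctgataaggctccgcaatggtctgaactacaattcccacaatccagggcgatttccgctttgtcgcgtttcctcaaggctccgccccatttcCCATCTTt
ATP5F1C: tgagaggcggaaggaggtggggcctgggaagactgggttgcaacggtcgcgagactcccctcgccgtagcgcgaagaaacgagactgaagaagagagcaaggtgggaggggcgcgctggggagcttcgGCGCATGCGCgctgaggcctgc

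Most subunit transcripts had slightly higher signals in the treated arrays as deposited, but with the same probe kept for each gene the median change was -0.02 with AFFX arrays centred on the spiked bacterial transcripts and -0.04 with ABI arrays centred on the ribosomal protein probes. On AFFX, 63 of 78 genes passed the test upward (adjusted p under 0.05 in limma, adjusted over all probes) and 3 downward, where 33.1% of all 19777 genes were called higher and 21.8% lower. On ABI, 40 of 78 passed upward and 0 downward, where 8.41% of all 17192 genes were called higher and 15.8% lower. The changes were small, with a median log2(Fold Change) of 0.39 (1.31-fold) on AFFX and 0.50 (1.42-fold) on ABI, against 0.16 and 0.09 for all genes. Leaving out any 1 AFFX array left 52 to 62 genes higher, while leaving out any 1 of the 6 ABI arrays left 1 to 7, from 1 without control replicate 2 to 7 without control replicate 1.

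With a limit of 1.5-fold added, 8 genes were higher and 1 lower on AFFX, where 2.49% and 14.2% of all genes were. Leaving out an array gave 4 (without control replicate 2) to 13 higher (without control replicate 1), and 2 lower without control replicate 1 or 3. On ABI 21 were higher and 0 lower, where 6.31% and 14.8% of all genes were. On ABI 0 genes were lower also at an unadjusted p under 0.05 of an equal-variance t-test. All 3 treated arrays lay above all 3 control arrays in 69 of the 78 AFFX genes and in 67 of the 78 ABI genes, where 45.2% and 23.1% of all genes did so. Most members were bright, with 65 genes on AFFX and 69 on ABI in the upper 25% of gene signals. Within that range, 59 of 65 members were called higher on AFFX and 38 of 69 on ABI, where 35.5% and 16.0% of its genes were.

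The spread of the subunits' changes was narrower than that of all genes. Most subunits were bright, and the spread of bright genes at large was not worked out. From the 10th to the 90th percentile, AFFX changes spanned 0.09 to 0.58 and ABI changes 0.25 to 0.69, while those of all genes spanned -0.86 to 0.44 and -1.21 to 0.80. The median subunit signal was 10.71, 10.57 and 10.62 on the control and 11.02, 11.06 and 10.94 on the treated AFFX arrays. On ABI it was 7.04, 6.87 and 6.85 on the control and 7.37, 7.34 and 7.39 on the treated arrays. The groups did not overlap on either platform, and with any 1 array left out the median change lay between 0.36 and 0.42 on AFFX and between 0.47 and 0.55 on ABI.

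**Figure D1:**
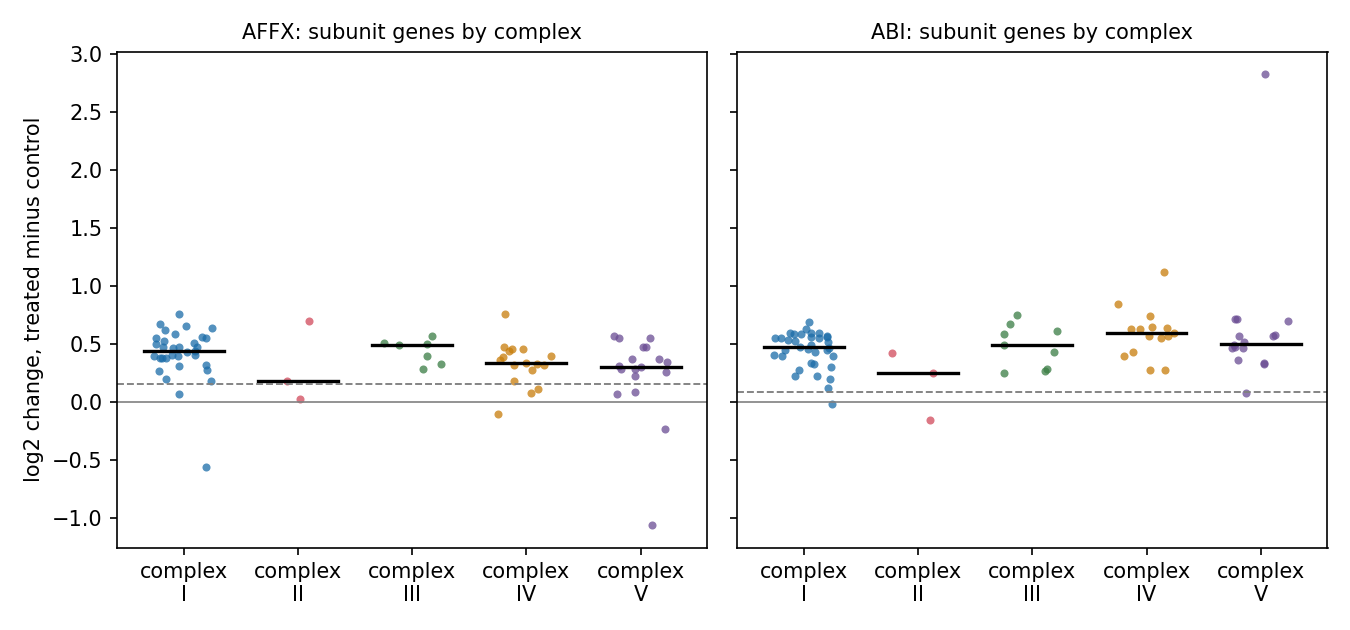
Log2 change, treated minus control, of every subunit gene by complex on AFFX and ABI, with signals as deposited. Each point is 1 gene, black bars are medians and dashed lines mark the median gene (0.16 and 0.09); most points of complexes I, III, IV and V lie above the dashed line as deposited, but the medians of II, IV and V on AFFX fall below 0 with spike-ins and those of I, II, III and V on ABI with ribosomal protein probes.

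Complex I, the NADH dehydrogenase and largest of the complexes, had 29 of 33 genes higher and 1 lower on AFFX, and 18 of 35 higher and 0 lower on ABI. Its median change was 0.44 on AFFX and 0.48 on ABI, which were 0.28 and 0.39 above the median gene, and the ABI median turned to -0.06 with ribosomal protein probes. NDUFB2, an accessory subunit, had the highest change of the complex on both platforms. Its AFFX signal was 10.13, 9.97 and 9.95 in the control and 10.80, 10.81 and 10.70 in the treated arrays, and its ABI signal was 6.00, 6.10 and 5.93 against 6.87, 6.60 and 6.63. The groups were apart on both platforms, and the change was 0.76 (SE 0.0863, adjusted p = 5.65e-05) and 0.69 (SE 0.136, adjusted p = 0.0224).

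The other accessory subunits called alike on both platforms included NDUFA3, with 0.62 (SE 0.0864) on AFFX and 0.60 (SE 0.124) on ABI. NDUFA3 and NDUFB2 were the 2 genes of all 73 that passed the 1.5-fold limit on both platforms. NDUFA2 changed by 0.67 and 0.53, NDUFB11 by 0.51 and 0.59, and NDUFA13, which is also known as GRIM-19, by 0.48 and 0.55. NDUFA5 had 0.59 and 0.57, but its AFFX value came from a dim probe set (17.3rd percentile of gene signals), and its bright one changed by 0.34 and did not pass (adjusted p = 0.0924). NDUFA7, with a single-gene probe on AFFX only, changed by 0.66 (SE 0.0792). Its control signals of 9.74, 9.66 and 9.77 lay below the treated signals of 10.41, 10.38 and 10.36.

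The core subunits include those that hold the flavin and the iron-sulphur clusters, which carry the electrons. Their median change was 0.28 for 5 genes against 0.47 for 28 accessory genes on AFFX, and 0.40 for 6 against 0.53 for 29 on ABI. The difference was not tested. The core sets differ, since NDUFS8 is counted on ABI only. Its AFFX probe sets, shared with microRNA genes and left out, changed by 0.58, 0.61 and -0.35. NDUFV1, which binds the flavin, rose by 0.38 (SE 0.0826) on AFFX and 0.45 (SE 0.114) on ABI. NDUFS1, which holds iron-sulphur clusters, rose by 0.28 (SE 0.0827) on AFFX, and its ABI change of 0.23 (SE 0.135) did not pass. NDUFV2 had 0.07 on AFFX and 0.40 on ABI, of which neither passed.

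Complex II, succinate dehydrogenase, also belongs to the tricarboxylic acid (TCA) cycle, and of the 3 genes measured 1 was higher on AFFX and 0 on ABI. The median of the 3 genes was 0.18 on AFFX and 0.25 on ABI, and turned to -0.24 with AFFX spike-ins, and on ABI to -0.03 under quantile normalization and -0.30 with ribosomal protein probes. SDHA, the flavoprotein that oxidises succinate, had 9.90, 9.72 and 9.84 in the control and 9.87, 9.88 and 9.80 in the treated AFFX arrays. The groups overlapped, as they did on ABI, and the changes were 0.03 (SE 0.0841, adjusted p = 0.789) and -0.15 (SE 0.137, adjusted p = 0.51). SDHC, a membrane anchor, went from 10.07, 9.95 and 10.05 to 10.75, 10.81 and 10.61 on AFFX, a rise of 0.70 (SE 0.087, adjusted p = 1.16e-04), while 3 other bright probe sets rose by 0.45 to 0.47. On ABI it went from 4.90, 4.69 and 4.53 to 5.26, 5.06 and 5.04, and the change of 0.42 (SE 0.154, adjusted p = 0.117) did not pass. SDHD, the other anchor, had 0.18 and 0.25, of which neither passed.

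Complex III, the cytochrome bc1 complex, had 7 of 7 genes higher on AFFX and 5 of 9 on ABI, with a median of 0.49 on each platform, which turned to -0.06 on ABI with ribosomal protein probes. UQCR10, a small accessory subunit, had 7.67, 7.56 and 7.58 in the control and 8.19, 8.27 and 8.07 in the treated AFFX arrays. On ABI the values were 8.89, 8.96 and 8.86 against 9.67, 9.34 and 9.53. The groups were apart on both, with a change of 0.57 (SE 0.0865) and 0.61 (SE 0.138), and a brighter AFFX probe set rose by 0.37. UQCRB, another accessory subunit, rose by 0.50 and 0.67, and UQCRC1, a core protein, by 0.33 and 0.49. CYC1, which is cytochrome c1, rose by 0.29 (SE 0.0803) on AFFX and had the same 0.29 on ABI with a larger error (SE 0.138, adjusted p = 0.203). UQCRH, the hinge protein, and its near-identical copy UQCRHL had changes of 0.59 and 0.75 on ABI, where the probes may not tell the pair apart.

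Complex IV, cytochrome c oxidase, had 13 of 17 genes higher and 0 lower on AFFX, and 8 of 15 higher and 0 lower on ABI. Its median was 0.34 on AFFX, which turned to -0.08 with spike-ins, and 0.60 on ABI. COX7C, measured on AFFX only, went from 9.50, 9.36 and 9.30 to 10.09, 10.25 and 10.08, a rise of 0.76 (SE 0.0909, adjusted p = 8.44e-05) with no overlap of the groups. The 2 brighter COX7C probe sets rose by 0.39 and 0.40. COX6B1 went from 11.31, 11.19 and 11.28 to 11.80, 11.75 and 11.68 on AFFX and from 7.23, 6.89 and 7.13 to 7.59, 7.76 and 7.70 on ABI, with changes of 0.48 and 0.60. COX6C had 0.33 (SE 0.0814) on AFFX and 0.85 (SE 0.152) on ABI. COX4I1 had 0.32 and 0.57, and COX5A 0.46 and 0.64, and these 4 changes passed. For COX5A the AFFX value came from a probe set with a control signal of 7.13, and the bright one at 11.78 changed by 0.19 and did not pass (adjusted p = 0.11). COX5B, whose promoter carries both motifs, rose by 0.40 (SE 0.0797) on AFFX and had 0.40 (SE 0.131, adjusted p = 0.0864) on ABI.

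Complex IV has subunit isoforms of muscle, lung or testis beside the common ones. The common forms COX6A1, COX7A2, COX7B and COX8A rose by 0.32, 0.46, 0.36 and 0.28 on AFFX. On ABI they had 0.43, 0.63, 0.63 and 0.55, of which that of COX6A1 did not pass. Of their tissue-restricted counterparts, COX8C lay at the 5.5th percentile of AFFX gene signals with a change of 0.11 (adjusted p = 0.405), and COX7A1, the muscle form, lay at the 5.42nd percentile on ABI with a change of 1.12 (SE 0.299, adjusted p = 0.0505). COX7B2 had 0.08 and 0.57, and COX6B2 -0.10 and 0.74, of which none passed. COX4I2 and COX7A1 passed on AFFX with 0.39 and 0.44, and COX6A2 on ABI with 0.65, from signals at the 66.8th, 59.0th and 63.0th percentile.

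Complex V, the ATP synthase, had 13 of 18 genes higher and 2 lower on AFFX, and 9 of 16 higher and 0 lower on ABI. Its median was 0.31 on AFFX and 0.50 on ABI, and turned to -0.11 with spike-ins and to -0.04 with ribosomal protein probes. In the membrane part, through which the protons pass, the AFFX fit called 7 of 8 genes higher and the ABI fit 5 of 7. ATP5MJ, a small membrane subunit, went from 10.86, 10.74 and 10.74 to 11.33, 11.40 and 11.26 on AFFX, and from 8.80, 8.78 and 8.85 to 9.49, 9.47 and 9.56 on ABI. The groups were apart on both, with 0.55 (SE 0.0842) and 0.70 (SE 0.112). The genes ATP5MC1, ATP5MC2 and ATP5MC3 all encode the same c subunit of the proton ring. They rose by 0.55, 0.30 and 0.35 on AFFX, and by 0.52 and 0.57 on ABI for the first 2, while ATP5MC3 had 0.33 there and did not pass. The AFFX value of ATP5MC3 came from the dimmer of its probe sets, and the 2 bright ones each changed by 0.16, with overlapping groups and no call.

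The catalytic head of complex V, taken with its central stalk, gave a less even picture on AFFX. Its 5 genes spanned -1.06 (ATP5F1C, through a dim probe set) to 0.57 (ATP5F1E) there, against -0.23 to 0.55 for the membrane genes. On ABI they spanned 0.34 to 0.57, and the membrane genes 0.33 to 2.83. ATP5F1A, the alpha subunit, had 0.07 (SE 0.0882) on AFFX, read from a dim probe set, and 0.34 (SE 0.126) on ABI, of which neither passed. ATP5F1B, the beta subunit with the catalytic sites, had 12.41, 12.30 and 12.37 in the control and 12.46, 12.45 and 12.46 in the treated AFFX arrays, a change of 0.09 (SE 0.0791). On ABI it went from 7.56, 7.47 and 7.40 to 8.05, 8.03 and 8.08, a rise of 0.57 (SE 0.116). The peripheral stalk genes had a median of 0.29 for 4 genes on AFFX and 0.47 for 3 on ABI. ATP5IF1, the inhibitor of ATP hydrolysis, rose by 0.48 (SE 0.0896) and 0.72 (SE 0.122).

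**Figure D2:**
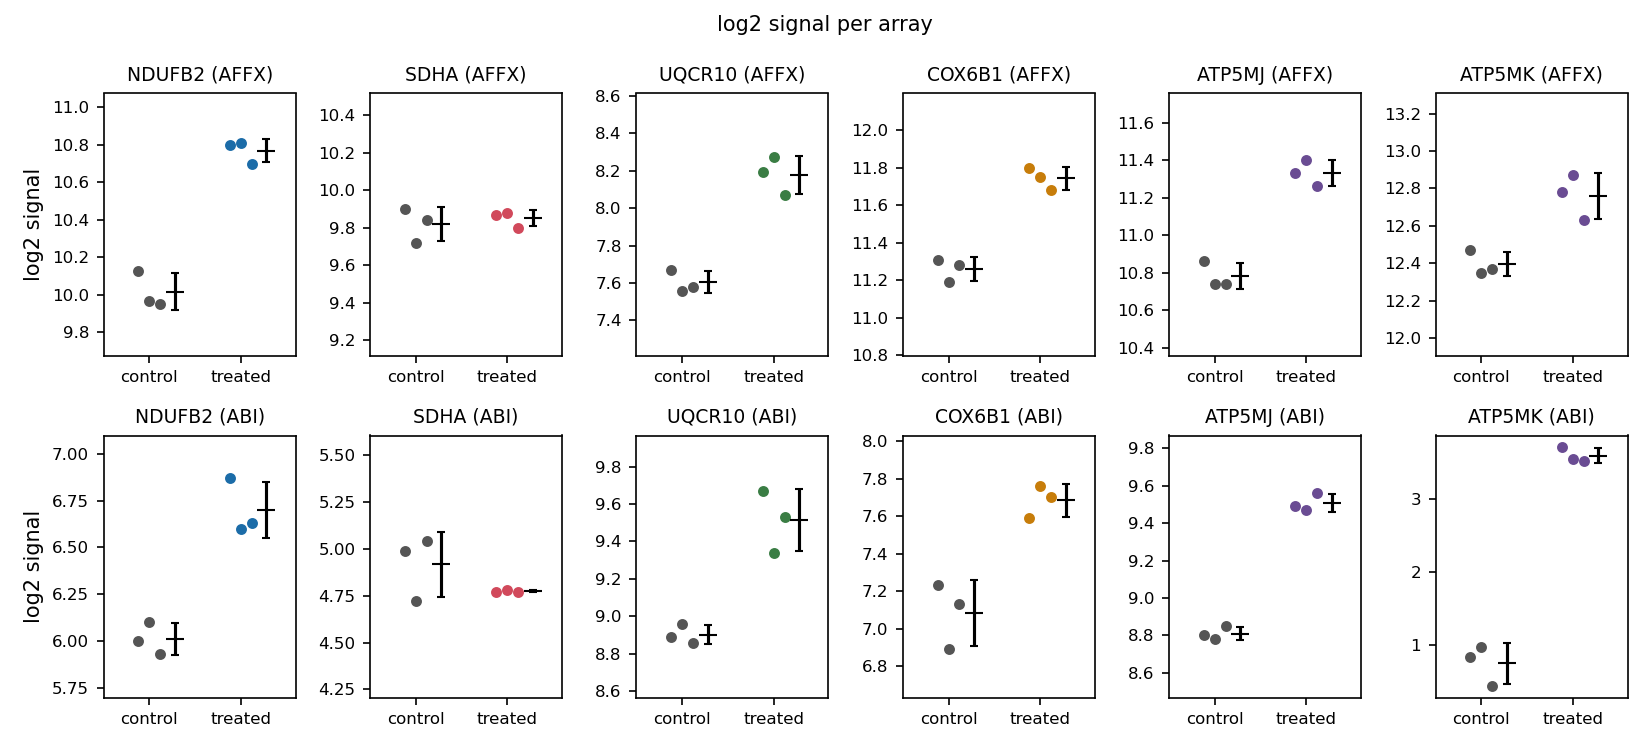
Log2 signal on each array (points) with mean and SD of the 3 arrays of a group (bars) for 6 genes, AFFX above and ABI below; each panel has its own axis range, of at least 1.4 units. The treated arrays lie above the control arrays in every panel but those of SDHA, where they overlap on both platforms, and ATP5MK moves by 0.37 on AFFX and by 2.83 on ABI.

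On ABI the largest change belonged to ATP5MK, a small membrane subunit of the ATP synthase. Its signal was 0.84, 0.97 and 0.44 in the control and 3.70, 3.54 and 3.51 in the treated arrays, a rise of 2.83 (SE 0.178, adjusted p = 8.59e-04). On AFFX it was among the brightest genes, with 12.47, 12.35 and 12.37 against 12.78, 12.87 and 12.63, and rose by 0.37 (SE 0.09). The ABI probe lay at the 65.8th percentile of gene signals and the AFFX probe set at the 99.7th. Percentiles given here are of the mean over all 6 arrays of a platform. On the ABI control arrays alone the ATP5MK mean was 0.75, where the median gene lay between 0.72 and 0.86.

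Probe sets of the same gene did not always move alike on AFFX. Of the 152 probe sets 93 were higher and 7 lower, and of the 102 in the upper 25% of gene signals 84 were higher and 1 lower. Among the 50 dimmer ones 9 were higher and 6 lower. Of the 44 genes with several probe sets, 5 had some higher and some lower, namely ATP5F1C, ATP5IF1, COX4I1, NDUFB8 and NDUFC1. Of the 44, 10 had every probe set higher. Shares over all AFFX probe sets and over all genes with several were not worked out, so these counts describe the members only. For ATP5F1C, the gamma subunit, a dim probe set went from 6.53, 6.39 and 6.41 to 5.44, 5.43 and 5.28, a fall of 1.06 on the log2 scale, while 3 bright probe sets changed by 0.21 to 0.24. NDUFB8 had a dim probe set at -1.24 and 2 bright ones at 0.47 and 0.50. Which probe set stood for a gene could turn on 1 array, since the change relative to the median gene went to -0.45 for ATP5IF1 without treated replicate 3, to -1.28 for NDUFB8 without control replicate 1 and to -0.15 for NDUFS1 without control replicate 3. NDUFV3, named after its values were seen, had a dim probe set at -1.25 and a bright one at 0.18 that did not pass.

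The 3 genes counted as lower on AFFX were ATP5F1C, ATP5MF and NDUFC1, each through a dim probe set. NDUFC1 had 7.28, 7.22 and 7.25 against 6.71, 6.70 and 6.65 there (-0.56), while its bright probe set rose by 0.42. ATP5MF had 1 single-gene probe set, at -0.23 (adjusted p = 0.0464). All 3 genes were higher on ABI, by 0.48, 0.72 and 0.63 in that order. With the probe of highest mean signal taken for each gene, 60 genes were higher and 1 lower on AFFX, and 39 and 0 on ABI. Of all genes 26.3% were then higher on AFFX and 7.83% on ABI, and 3640 and 2591 genes were lower.

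**Figure D3:**
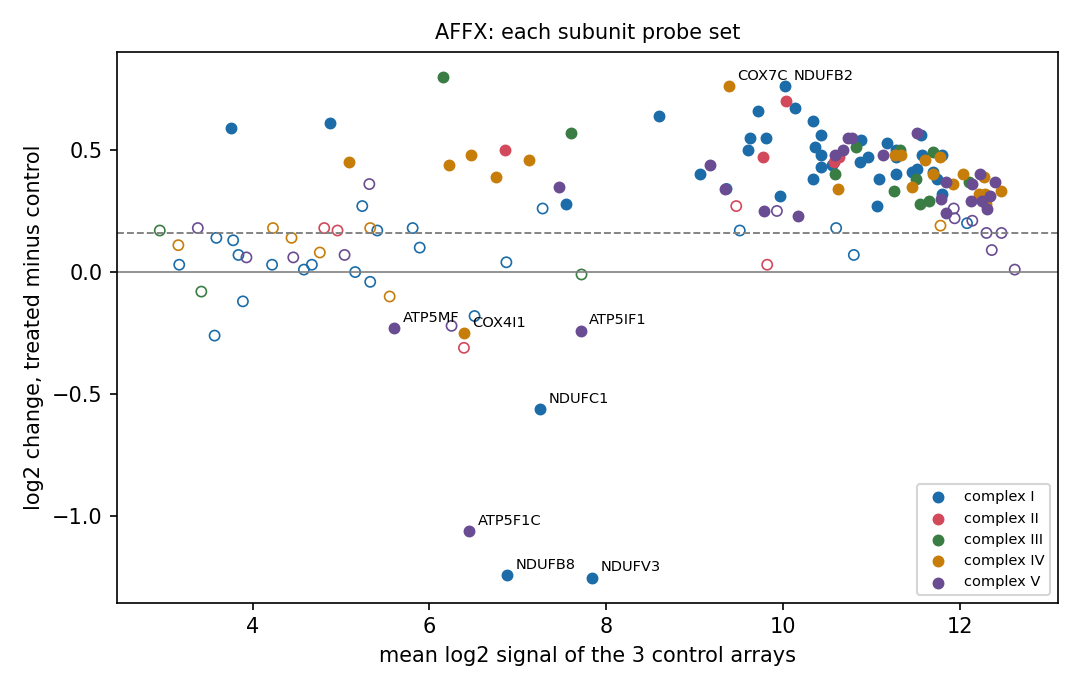
Log2 change, treated minus control, of each of the 152 AFFX subunit probe sets against its mean log2 signal on the 3 control arrays, with colours for the complexes, filled points for probe sets that passed the test and the dashed line at the median gene. Of the 7 lower probe sets all lie below a signal of 8. Most bright ones lie above the dashed line, but some do not, such as those of SDHA (0.03), NDUFV2 (0.07) and ATP5F1B (0.09). Centring on spike-ins would lower every point by 0.42. With each gene's probe kept, 45 of 78 subunit genes then fall below 0.

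Of the 73 genes on both platforms, 30 passed upward on both and 0 downward on both, where 4.65% of all 16186 shared genes were higher on both, and 67 of the 73 changed by more than 0 on both, against 47.1% of all shared genes. Without any 1 of the ABI arrays, 1 to 5 genes passed upward on both. The changes themselves differed between the platforms for 9 genes (limma, interaction over the 12 arrays), a share of 12.3% where 15.1% of all shared genes were called. The count fell to 5 without AFFX control replicate 2 or treated replicates 1 or 2, and without ABI control replicate 2 or treated replicate 2. NDUFC1, ATP5F1C and ATP5MF were those called in opposite directions. The other 6 were ATP5F1B, ATP5MK, COX6A2, COX6C, NDUFA8 and NDUFAB1. NDUFA8, an accessory subunit of complex I, had -0.02 (SE 0.11) on ABI, where its signals were 7.16, 7.08 and 7.11 against 7.10, 7.08 and 7.11, while it rose on AFFX by 0.31 (SE 0.0796).

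The 7 subunits encoded in mitochondrial DNA that AFFX carries had a median change of 0.10, and 1 of 7 passed, upward. This list was added after the data were seen. COX1, COX2, ND2 and ND4 were among the brightest genes, with control signals from 13.27 to 13.98, and had changes of 0.10, 0.08, -0.02 and 0.03. ND6, the subunit encoded on the light strand, rose by 0.79 (SE 0.119, adjusted p = 4.56e-04) from a signal of 6.54. The median of the 7 genes turned to -0.06 with arrays centred on ribosomal protein probes and to -0.31 with spike-ins.

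Assembly factors, which help to build the complexes and are not part of them, went both ways. Of 48 on AFFX 23 were higher and 13 lower, with a median of 0.19, and of 42 on ABI 2 were higher and 11 lower, with a median of 0.06. Of all genes, 33.1% were higher and 21.8% lower on AFFX, and 8.41% and 15.8% on ABI. The medians turned to -0.22 with AFFX arrays centred on spike-ins and to -0.49 with ABI arrays centred on ribosomal protein probes. On both platforms 9 of 42 were lower and 2 higher, and 2 passed in opposite directions. The share of all shared genes lower on both platforms was not worked out. TMEM70, an assembly factor of the ATP synthase, had -1.47 (SE 0.0929) on AFFX and -2.12 (SE 0.157) on ABI. SDHAF1, which serves complex II, had -1.73 and -2.55, COA7, an assembly factor of cytochrome c oxidase, had -1.08 and -2.30, and TACO1, a translational activator of COX1, had -0.91 and -1.57, and all of these passed. The ABI probe of SDHAF1 was dim (42.5th percentile of gene signals), with means of 1.16 in the control and -1.39 in the treated arrays.

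Most regulators of mitochondrial genes were lower in the treated arrays. Of 19 on AFFX 13 were lower and 3 higher, with a median of -0.98, and of 18 on ABI 10 were lower and 0 higher, with a median of -0.96, where 21.8% and 15.8% of all genes were lower. The median stayed below 0 under each scaling, from -1.51 to -0.82, and 10 of 18 were lower on both platforms. No share of all shared genes stands beside that count either. PPRC1, a coactivator of NRF1, had -2.33 (SE 0.103) on AFFX and -2.93 (SE 0.167) on ABI, and MYC had -2.30 (SE 0.0838) and -2.80 (SE 0.114). MTERF3 and MTERF1, which act on mitochondrial transcription, had -1.91 and -1.97, and -1.50 and -3.45. The factors of the promoter motifs, named after their values were seen, differed. NRF1 had -1.23 and -1.65 and the GABP subunit gene GABPB1 -1.61 and -0.82, of which all passed, while GABPA had 0.05 and 0.13, of which neither passed. The ABI probe of NRF1 was dim (36.4th percentile of gene signals), with means of 0.24 in the control and -1.40 in the treated arrays. YY1 rose by 0.57 on AFFX and had 0.34 on ABI, which did not pass.

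The subunit genes with 1 or more of the NRF1, ETS and YY1 motifs had a median change of 0.40 over 35 genes on AFFX and 0.47 over 32 on ABI. Those with none had 0.43 and 0.55 over 31 genes each. These medians are descriptions, and no test of the difference was made.

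Other lists held the enzymes that feed the chain and the carriers that serve it. Of the TCA cycle and pyruvate dehydrogenase genes, 6 of 17 were higher and 1 lower on AFFX, and 3 of 16 higher and 0 lower on ABI. Genes at large were higher in 33.1% and 8.41% of cases, so that the AFFX count is near that background. PDHA1, a subunit of pyruvate dehydrogenase, rose by 0.43 and 0.68, and IDH3B, of isocitrate dehydrogenase, by 0.39 and 0.50. Of the electron carriers and quinone enzymes 6 of 18 and 2 of 16 were higher and 2 and 1 lower, again near the background. ETFA, which delivers electrons from fatty acid oxidation, rose by 0.51 and 0.50. Of the ATP and ADP carriers 3 of 6 and 4 of 7 were higher and 0 lower on either platform, with SLC25A3, the phosphate carrier, at 0.44 and 0.60 and VDAC2, an outer membrane channel, at 0.22 and 0.71. The medians of these 3 lists turned below 0 with AFFX arrays centred on spike-ins (-0.20, -0.23 and -0.20), and those of the first 2 with ABI arrays centred on ribosomal protein probes (-0.23 and -0.33).

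**Figure D4:**
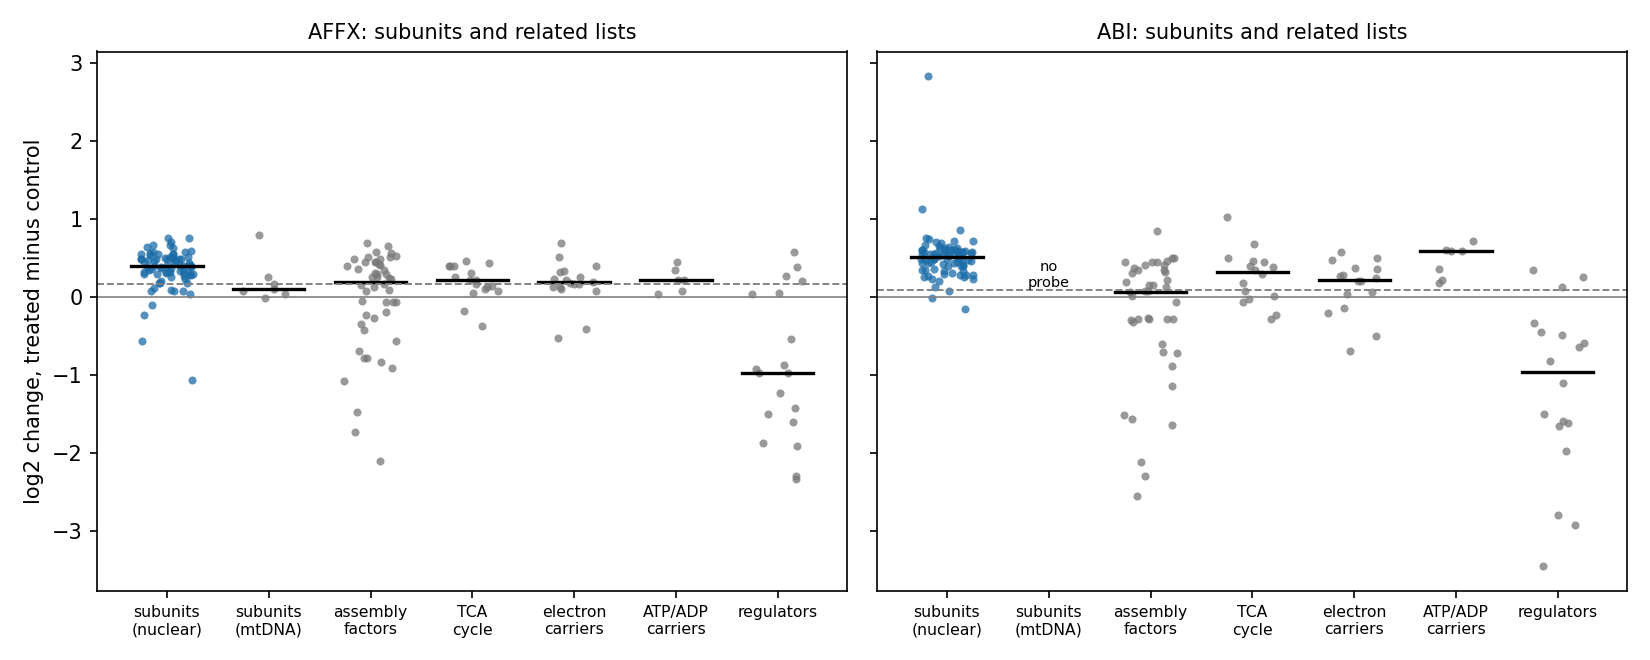
Log2 change, treated minus control, of the nuclear subunit genes (blue) and of 6 related gene lists (grey) on AFFX and ABI as deposited, with a black bar at each median and a dashed line at the median gene. The subunits form a tight cluster at a median of 0.39 and 0.50, 6 of the 7 mitochondrially encoded subunits on AFFX lie lower than that median of 0.39 and ND6 at 0.79, and the regulators reach down to -2.33 and -3.45. The regulators' medians stay below 0 under each scaling, while the subunits' medians turn with AFFX spike-ins (-0.02) and ABI ribosomal protein probes (-0.04), each gene keeping its probe.

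The common level of the arrays could be set in several ways. The bacterial spike-ins on AFFX had a mean log2 signal of 9.47, 9.30 and 9.26 on the control and 9.88, 9.91 and 9.49 on the treated arrays, a difference of 0.42 (exact 2-sided permutation test, p = 0.1, the smallest that 3 against 3 arrays allow). By the study's methods they were added as cRNA before hybridisation, so they do not measure the RNA content of the cells. Centring on them shifted every AFFX change by -0.42 and left 33 of 78 subunit changes above 0. Centring on the ribosomal protein probes shifted every change by -0.16 on AFFX and by -0.55 on ABI, and left 68 and 35 of 78 above 0. Relative to the median gene, the median subunit was higher by 0.23 on AFFX and 0.41 on ABI as deposited, a difference that centring cannot change while each gene keeps its probe. Quantile normalization, which can change it, gave 0.13 and 0.12.

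**Figure D5:**
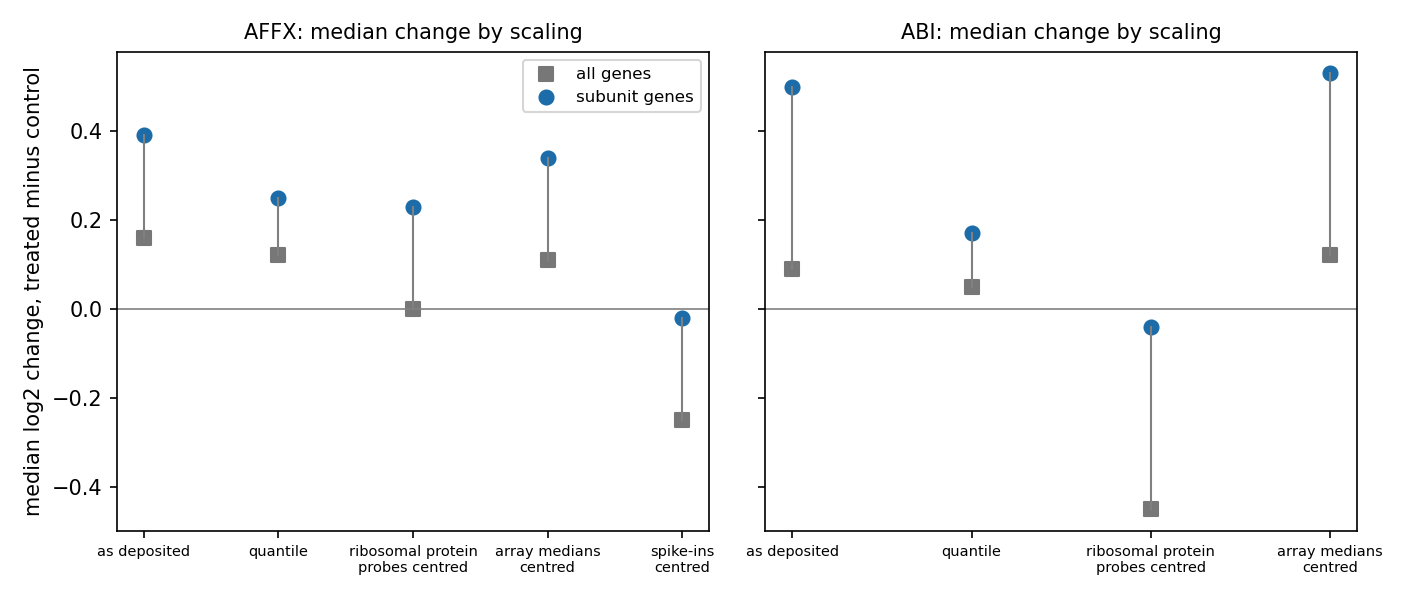
Median log2 change, treated minus control, of the subunit genes (circles) and of all genes (squares) under each scaling of the arrays on AFFX and ABI, with each gene's probe kept. Circles and squares fall below 0 with AFFX spike-ins (-0.02 and -0.25) and ABI ribosomal protein probes (-0.04 and -0.45), and their distance, which centring leaves as it is, narrows under quantile normalization to 0.13 and 0.12.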

How the data were processed

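Transcripts of A2780 cells, left untreated or exposed to 3 µM of a cell cycle inhibitor for 6 hours, were measured on 3 AFFX and 3 ABI arrays per condition, as technical replicates of 1 RNA pool each. The AFFX table holds log2 values as deposited, which the authors made by RMA with quantile normalization. The ABI table holds chemiluminescence intensities, taken as linear since no source states the scale, which the authors scaled by the global median and deposited without detection flags, and these were turned to log2. The number of arrays limits the precision.

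Each platform was fitted alone, unpaired, with limma 3.58.1 in R 4.3.3, and p-values were adjusted by Benjamini-Hochberg over the 54613 AFFX probe sets other than controls and the 33096 ABI probes. A call needed an adjusted p under 0.05, with or without a limit of 1.5-fold. For a gene with several probes, the probe with the lowest p of a t-test was taken, as in the study's methods, which favours large changes. Equal variances were assumed here, which the methods do not state. Probes of several genes (1801 and 563) were left out of gene counts. No filter on low signals was used. The steps were tested on simulated data. Symbols came from the platform annotation and promoters from RefSeq.

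Alternatives were other scalings, another choice of probe, a filter on dim probes, other tests and limits, and each array left out in turn. Members, gene lists and tests were chosen with earlier results of these data known. Genes named were members called alike on both platforms (up to 12), past the fold limit (up to 15) or in opposite directions, fixed core subunits and isoform pairs, genes with probe sets in opposite directions, and up to 4 genes per list called alike. Exceptions are said to be named after their values were seen, and a few more members stand as examples.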

Additional observations from a re-analysis of the deposited data

Results flagged for a closer look

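The change of 9 subunit genes differed between ABI and AFFX in the test of the difference itself (limma, interaction over 12 arrays, ABI change minus AFFX change), a share of 12.3% where 15.1% of all shared genes were called. The difference was 2.47 for ATP5MK, 1.55 for ATP5F1C, 1.19 for NDUFC1, 0.96 for ATP5MF, 0.52 for COX6C, 0.48 for ATP5F1B, 0.47 for COX6A2, 0.36 for NDUFAB1 and -0.34 for NDUFA8. The adjusted p was lowest for ATP5F1C (4.24e-05) and highest for COX6A2 (0.0487). For ATP5F1C, NDUFC1 and ATP5MF the AFFX value came from a dim probe set, and with the probe of highest mean signal 3 genes in all differed. The count was 5 without AFFX control replicate 2 or treated replicates 1 or 2, and without ABI control replicate 2 or treated replicate 2.

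Some probes outside the gene counts were also higher in the treated arrays. Among AFFX probe sets that stand for several genes, the change was 0.31 for UQCRHL and UQCRH, 0.33 for RPL10 and NDUFS5, 0.26 for ATP5MF with ARMC2-AS1, 0.35 for PTPMT1 and NDUFS3, and 0.39 and 0.26 for the pair of NDUFC2 with NDUFC2-KCTD14. The NDUFS8 probe sets shared with microRNA genes had 0.58 and 0.61, and the other one had -0.35. On ABI, 1 probe of ATP5MG and UBE4A had 0.68 and the other 0.18, and 1 probe of CD320 and NDUFA7 had 0.56 and the other 0.17, of which the lower ones did not pass. The pseudogene ATP5MC2P1 had 0.65 on AFFX, from a signal of 6.46 to 7.11, and the non-coding genes NDUFB2-AS1 and NDUFV2-AS1 had 0.48 and 0.34, while the other NDUFV2-AS1 probe set had -0.01.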

How the results depend on the processing

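Beside the values with all arrays as deposited, the counts of subunit genes moved as follows, and where no other reason is given the cause was not tested. Quantile normalization gave medians of 0.27 on AFFX and 0.17 on ABI, 2 AFFX genes lower past the limit of 1.5-fold, 14 ABI genes higher (7 past the limit), 9 alike on both platforms and 20 whose change differed. The 14 were out of 78 ABI members, where 11.7% of all ABI genes were then higher. As deposited it was 40 of 78, where 8.41% of all genes were. Centring on ribosomal protein probes gave medians of 0.23 and -0.06, 37 AFFX genes higher and 5 lower (1 and 3 past the limit), 1 ABI gene higher and 7 lower (1 and 3), 0 alike and 40 that differed. Of all genes 8.74% were then higher on AFFX and 0.651% on ABI, and 5607 of 19777 and 5762 of 17192 were lower. Centring on array medians gave 3 AFFX genes higher and 3 lower past the limit, and 5 lower without it, where 4651 of all 19777 AFFX genes were. Centring on spike-ins gave an AFFX median of -0.16, 0 genes higher, 13 lower (11 past the limit), 0 alike and 39 that differed. Of all 19777 AFFX genes 0.182% were then higher and 6708 lower. These scalings also chose each gene's probe anew. With the probe of each gene kept, added after seeing the data, spike-ins gave a median of -0.02, 0 higher and 4 lower (0 and 3 past the limit), ribosomal protein probes gave medians of 0.23 and -0.04, 37 AFFX genes higher and 3 lower (2 and 2) and 1 ABI gene higher and 3 lower (1 and 1), array medians gave 5 AFFX genes higher and 2 lower past the limit, and quantile normalization gave medians of 0.25 and 0.17 and 14 ABI genes higher (7). The counts alike and those that differed were not worked out with the probes kept. With the probe of highest mean signal, 4 AFFX genes were higher and 0 lower past the limit, 1 was lower without it, and 3 differed. Of all 19777 AFFX genes 3640 were then lower without the limit. Only probes above the median signal gave 64 of 75 ABI genes higher, where 25.4% of all genes were, and 50 alike. This filter also means fewer tests, and the reason for the rise was not tested. The unadjusted equal-variance test gave 66 ABI genes higher and 55 alike. Only genes in the upper 25% of signal, chosen after seeing the data, left 0 AFFX genes lower at either limit. Of all 4944 such genes 1650 were lower without a fold limit. A limit of 2-fold left 0 AFFX genes and 1 ABI gene higher. Where no share of all genes stands beside a count in this section, none was worked out, and the count describes the members only.

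The labels link same-numbered control and treated arrays by a number only. Their deviations from the group means correlated at 0.0746, 0.00403 and 0.327 on AFFX and at 0.0342, -0.00667 and 0.0717 on ABI. Not every array correlated best with its own number, though the pair numbered 3 had the highest value on each platform. Whether same-numbered arrays shared a batch was not tested. The replicate block left 2 ABI genes higher (2 past the limit), 2 alike and 4 that differed. It moved no AFFX count by over 1.5 times.

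Leaving out 1 array at a time gave 52 to 62 AFFX genes higher and 2 to 4 lower (4 to 13 and 1 to 2 past the limit), and 1 to 7 ABI genes higher and 0 lower at either limit. It gave 1 to 29 genes alike and 5 to 8 that differed, with medians of 0.36 to 0.42 and 0.47 to 0.55. Fewer arrays leave fewer residual degrees of freedom.

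The changes of 45 named genes relative to the median gene were followed on each platform (86 values). Of 1051 alternative values 844 moved by less than the replicate SD, 190 by more, and 17 turned sign. With spike-ins these were ATP5IF1 (-0.31), COX4I1 (-0.32), NDUFA2 (-0.06), NDUFB8 (-1.31), NDUFS1 (-0.02) and SDHC (-0.38) on AFFX, where another probe set became the one with the lowest p. The same holds for ATP5IF1 with array medians (-0.40) and with 1 array left out (-0.45 without treated replicate 3, to 0.38), NDUFB8 (-1.28 without control replicate 1, to 0.34) and NDUFS1 (-0.15 without control replicate 3, to 0.16), all on AFFX, and NDUFB11 on ABI with ribosomal protein probes (-1.17). With the probe of highest mean signal ATP5F1C had 0.08 and NDUFC1 0.29 on AFFX. Quantile normalization brought ATP5MC1 and COX7A2 on ABI to 0.00, and COX8A (-0.01) and CYC1 (-0.02) on AFFX below the median gene.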
